A study of Mus musculus with 2 samples.

Results

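Crybb3 and Cryba2 are 2 of the 27998 genes counted in mouse pancreatic islet cells, and both encode crystallins, proteins best known from the eye lens. They were chosen by symbol, with their levels by cell type and diet in these data already known, so what follows describes those levels and tests none of them. Cells of wild-type C57BL/6J mice were profiled with the 10x Genomics 3' v2 chemistry after 6 weeks of feeding from weaning. A group of 5 mice on a 60% high-fat diet (HFD) gave 1 library, and a group of 4 mice on regular chow gave the other. The mice of a diet were pooled, their islets were picked by hand and cultured overnight before trypsin was used, and no file ties a cell to a mouse. The labels used here state neither the age nor the sex of the mice.

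Crystallins of the beta and gamma superfamily pack at high concentration in lens fibre cells, where they keep the tissue clear and refractive; alpha crystallins are small heat shock proteins. Crybb3 encodes a basic beta crystallin and Cryba2 an acidic one, and both kinds form dimers and larger oligomers in the lens. Islet endocrine cells share with the developing lens several transcription factors that act on crystallin genes, among them Pax6 and Prox1.

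The promoters of both genes are shown because the 2 genes sat in different islet cell types. Each line gives 250 bases before to 50 bases after the start site in RefSeq (GRCm38.p6), read 5′ to 3′ on the gene's strand. Both members were matched by symbol. Crybb3 lies on the minus strand at chr5:113081535-113081834 and Cryba2 on the minus strand at chr1:74893094-74893393.
Crybb3: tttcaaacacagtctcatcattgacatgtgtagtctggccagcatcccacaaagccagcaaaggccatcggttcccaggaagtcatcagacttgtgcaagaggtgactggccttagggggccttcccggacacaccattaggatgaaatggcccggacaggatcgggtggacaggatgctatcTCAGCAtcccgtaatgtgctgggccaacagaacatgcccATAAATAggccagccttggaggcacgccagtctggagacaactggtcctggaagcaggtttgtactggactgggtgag
Cryba2: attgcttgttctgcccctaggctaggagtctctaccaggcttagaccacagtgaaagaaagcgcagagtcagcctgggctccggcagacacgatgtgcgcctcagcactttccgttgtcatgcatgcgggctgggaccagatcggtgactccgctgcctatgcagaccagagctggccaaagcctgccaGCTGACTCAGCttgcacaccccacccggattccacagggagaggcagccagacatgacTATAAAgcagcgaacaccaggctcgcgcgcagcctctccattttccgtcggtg
Capitals mark motifs looked for on both strands and chosen after the letters had been seen. In Crybb3 they are ATAAATA, which begins 28 bases before the start site, and TCAGCA, which begins 67 bases before it. In Cryba2 they are TATAAA, which begins 3 bases before the annotated start, and GCTGACTCAGC, which begins 61 bases before it. That longer string is TGACTCA with the 2 letters that stand on each side of it in Cryba2. Cryba2 therefore holds it by construction, and nothing is read from its share. GCTGACTCAGC was in 15 of 32851 promoters of this length (0.0457%). TATAAA was in 13.6% of them, ATAAATA in 5.60%, TGACTCA in 5.20% and TCAGCA in 19.5%. A second TCAGCA stands in the Cryba2 window, 149 bases before the start. In the RefSeq annotation Crybb3 lies between Crybb2 and 2900026A02Rik, and Cryba2 between Fev, an ETS transcription factor gene, and Mir375, the gene of a microRNA abundant in islets.

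Cells were typed by their hormone RNA: beta where Ins1 and Ins2 (insulin) made up at least 20% of the unique molecular identifiers (UMIs), otherwise alpha where Gcg (glucagon) reached 5%, otherwise delta where Sst (somatostatin) reached 1%, otherwise PP where Ppy (pancreatic polypeptide) reached 15%. This gave 2968 beta, 374 alpha, 370 delta and 154 PP cells in the HFD library and 4372 beta, 740 alpha, 447 delta and 199 PP cells in the chow library. Median UMIs per beta cell were 16758.5 in the HFD library and 14653 in the chow library. Beta, alpha and delta cells held markers of their own type. Nkx6-1 was at 129 counts per 1000000 UMIs (CPM) in HFD and 125 CPM in chow beta cells. Irx2 was at 56.2 CPM in HFD and 55.4 CPM in chow alpha cells, and Hhex at 225 CPM in HFD and 227 CPM in chow delta cells. The delta class also held much RNA of other types. Its 4 PP markers summed to 149126 CPM (HFD) and 151723 CPM (chow), above its 4 delta markers at 77805 CPM (HFD) and 99308 CPM (chow). Its 8 beta markers summed to 73066 CPM (HFD) and 85692 CPM (chow). Comparisons of delta with PP cells are therefore between classes that share PP marker RNA. Mafa, a further beta cell factor, was nearly absent from the counts of beta cells, with 0.08 CPM in the HFD library and 0.07 CPM in the chow library. Cells left over were called endothelial-like (121 HFD, 173 chow), macrophage-like (69 HFD, 55 chow) or fibroblast or pericyte-like (58 HFD, 40 chow) from markers. The libraries shared 45 barcode sequences. Each UMI stands for 1 captured 3' end, so no division by transcript length was made. Intervals are 95%, exact Poisson for CPM and Clopper-Pearson for shares, and take in counting error alone. Each diet has 1 library, so no replicates exist, and diet, library and mouse pool cannot be told apart.

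Crybb3 was highest in beta cells of both libraries, with alpha cells next among the hormone types. It stood at 86.9 CPM (84.3 to 89.5) in HFD beta cells and 242 CPM (238 to 246) in chow beta cells. In alpha cells it stood at 25.4 CPM (20.8 to 30.7) in the HFD library and 76.3 CPM (69.6 to 83.4) in the chow library. HFD delta cells held 9.82 CPM (6.92 to 13.5) and chow delta cells 21.9 CPM (17.4 to 27.1), while HFD PP cells held 10.4 CPM (6.74 to 15.4) and chow PP cells 11.3 CPM (7.76 to 15.8). Beta cells thus had 3.41 times the alpha level in the HFD library and 3.17 times in the chow library. Over delta cells the fold was 8.73 in the HFD library and 10.99 in the chow library. Delta and PP cells of the HFD library did not differ beyond their intervals, while those of the chow library did. The intervals leave out the spread between cells, and 5 of the 447 chow delta cells held 41.0% of the Crybb3 counts of that type.

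Outside the hormone types, endothelial-like cells held Crybb3 at 54.4 CPM (41.1 to 70.6, 56 UMIs) in the HFD library and 42.9 CPM (32.7 to 55.4, 59 UMIs) in the chow library. The cells left without a name held 6.27 CPM (1.71 to 16.0, 4 UMIs) in the HFD library and 35.7 CPM (22.4 to 54.1, 22 UMIs) in the chow library, where their interval overlapped that of the endothelial-like cells. The endothelial-like level was above that of alpha cells in the HFD library and below it in the chow library. No endothelial-like cell had more than 5 Crybb3 UMIs. Those with Crybb3 had a smaller share of insulin RNA than those without it. The median shares were 1.67% against 2.56% of UMIs in the HFD library and 1.82% against 2.21% in the chow library. Cells with Crybb3 also had more UMIs, 9112.5 against 5868 in the HFD library and 8159 against 6632.5 in the chow library. These groups used UMIs before thinning, so deeper cells are more readily counted as having Crybb3. The part of depth in the lower insulin share was not tested. In both groups the median cell had UMIs of 8 of the 8 endothelial markers. The markers' summed level in the class was 16380 CPM in the HFD library and 14038 CPM in the chow library, and none of the 8 was at 0. The class was named from at least 3 of these same markers, so their presence is partly fixed by the rule.

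Insulin RNA was found in every class, so the Crybb3 level was also set against it. Per 1000000 insulin UMIs, Crybb3 had 163 UMIs in HFD beta cells and 460 in chow beta cells. Macrophage-like cells, used here as background, had 203 in the HFD library, from 3 Crybb3 UMIs, and 459 in the chow library, from 5. Alpha cells had 1360 (HFD) and 3151 (chow), endothelial-like cells 2195 (HFD) and 1944 (chow), delta cells 360 (HFD) and 795 (chow), and PP cells 546 (HFD) and 408 (chow). Alpha, delta and endothelial-like cells of both libraries and PP cells of the HFD library therefore held more Crybb3 for their insulin RNA than beta cells did, with the widest margins in alpha and endothelial-like cells. The chow PP ratio was below that of beta cells, and the macrophage-like ratio was close to it.

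Cryba2 had another order: alpha cells far above the rest. It stood at 305 CPM (289 to 322) in HFD alpha cells and 355 CPM (340 to 370) in chow alpha cells. HFD delta cells held 42.5 CPM (36.1 to 49.6) and chow delta cells 50.1 CPM (43.2 to 57.7), HFD PP cells 36.2 CPM (29.0 to 44.7) and chow PP cells 38.6 CPM (31.8 to 46.4). HFD beta cells held 24.7 CPM (23.3 to 26.1) and chow beta cells 23.9 CPM (22.7 to 25.1). Neighbouring delta and PP cells did not differ beyond their intervals in either library, and beta cells lay below both in each. With hormone RNA left out of the denominator, Crybb3 in beta over alpha cells was 2.56 on the log2 scale in the HFD library and 2.52 in the chow library, against 1.77 in the HFD and 1.66 in the chow library with it. On the same scale Cryba2 in beta over delta cells of the HFD library was then 0.0396 rather than −0.79, so that beta cells no longer lay below delta cells there. The alpha level of Cryba2 was 12.4 times the beta level in the HFD library and 14.9 times in the chow library. Outside the endocrine types there was little Cryba2: 2 UMIs in the HFD endothelial-like cells and 5 in those of the chow library, 0 in HFD and 1 in chow macrophage-like cells. For the 0 of the HFD macrophage-like cells the Poisson interval ends at 4.15 CPM, and 3 counts in its place would make 3.37 CPM.

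**Figure D1:**
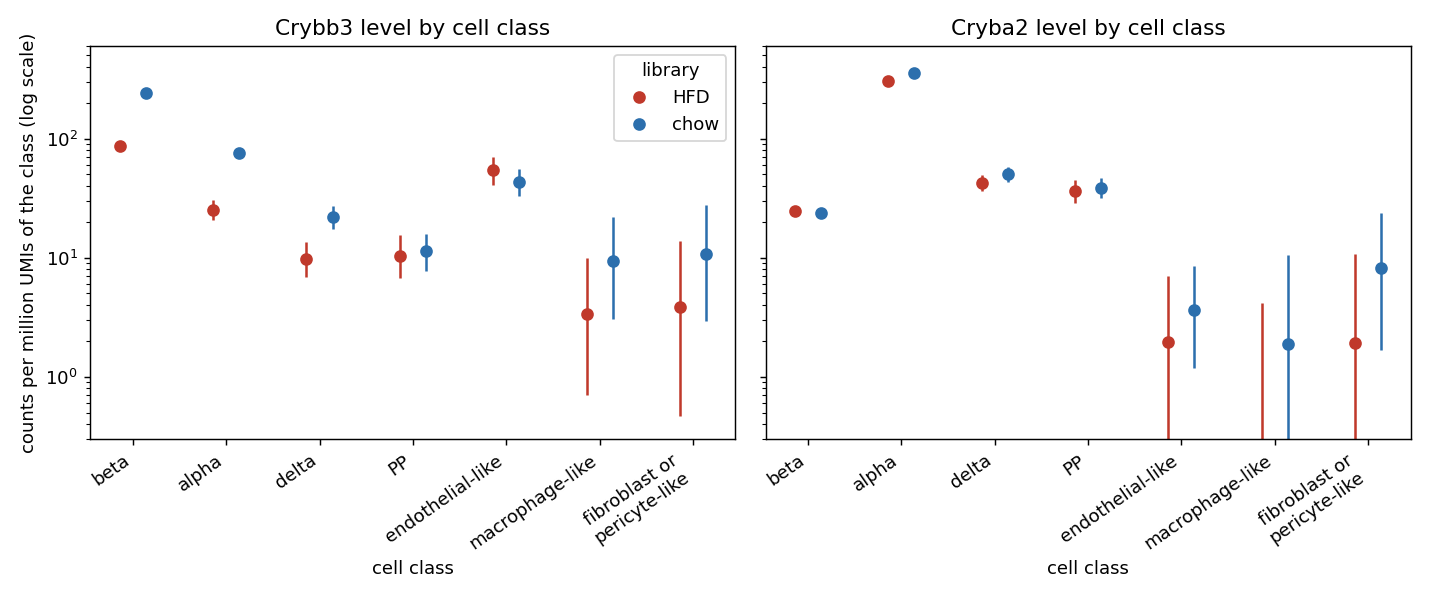
Crybb3 (left) and Cryba2 (right) in counts per 1000000 UMIs of each cell class, on a log axis, in the HFD and chow libraries; lines are exact Poisson 95% intervals cut at the lower edge of the axis, and a class with 0 counts has a line and no point. Crybb3 peaks in beta cells, at 86.9 CPM in the HFD library and 242 CPM in the chow library, and Cryba2 in alpha cells, at 305 CPM in the HFD library and 355 CPM in the chow library.

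With each cell thinned to 4000 UMIs, 62.6% of HFD alpha cells (57.4 to 67.5%) and 66.3% of chow alpha cells (62.8 to 69.8%) held Cryba2. The share was 10.1% in HFD beta cells and 9.15% in chow beta cells, 17.0% in HFD and 15.3% in chow delta cells, and 16.2% in HFD and 16.6% in chow PP cells. In endothelial-like cells, which serve as background for this gene, it was 0.826% in the HFD library and 1.18% in the chow library. Before thinning, 86.1% of HFD alpha cells (median 10894.5 UMIs) and 83.4% of chow alpha cells (8368 UMIs) held Cryba2. Among endothelial-like cells 1.65% of the HFD library (6561 UMIs) and 2.89% of the chow library (6972 UMIs) did. Cryba2 was thus found in each of the 4 hormone types well above that background, and in most alpha cells.

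Thinned in the same way, Crybb3 was in 16.6% of HFD beta cells (15.3 to 18.0%) and 28.8% of chow beta cells (27.5 to 30.2%). It was in 7.75% of HFD alpha cells (5.25 to 10.9%) and 12.1% of chow alpha cells (9.85 to 14.7%), in 1.35% of HFD and 5.71% of chow delta cells, in 2.60% of HFD and 4.02% of chow PP cells, and in 14.9% of HFD and 15.3% of chow endothelial-like cells. Macrophage-like cells gave 1.45% (0.0367 to 7.81%) in the HFD library and 3.70% (0.452 to 12.7%) in the chow library, and the delta and PP shares lay within or near those wide intervals. Before thinning, 39.7% of HFD and 53.2% of chow beta cells had a Crybb3 UMI, against 4.35% of HFD macrophage-like cells (median 12401 UMIs) and 9.09% of those of the chow library (9604 UMIs). By these shares Crybb3 in delta and PP cells could not be told from the macrophage-like background at this depth, although the delta level per insulin UMI lay above that of macrophage-like cells, which rests on few UMIs.

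The types rest on thresholds, so cells just inside and outside them are given once. Cells with 20 to 25% insulin, inside the beta rule, had Crybb3 at 15.3 CPM in the HFD library (31 cells) and 66.8 CPM in the chow library (25 cells). Those with 15 to 20%, outside it, had 55.9 CPM in the HFD library (18 cells) and 67.3 CPM in the chow library (22 cells). Cryba2 stood at 36.2 CPM (HFD) and 62.9 CPM (chow) inside and at 44.7 CPM (HFD) and 56.7 CPM (chow) outside. Around the alpha rule, the 6 chow cells with 5 to 6% glucagon had Cryba2 at 281 CPM and the 6 with 4 to 5% had 306 CPM. The HFD library had 2 cells inside that band, with no Cryba2 UMI, and 11 outside, at 91.2 CPM. These borders hold few cells, and the 2 sides of the beta border were close except for Crybb3 in the HFD library.

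Among beta cells Crybb3 was spread very unevenly: most had none and a few held many. At 4000 UMIs per cell, 83.4% of HFD beta cells and 71.2% of chow beta cells had 0 Crybb3 UMIs, where a Poisson distribution of the same mean would give 72.0% (HFD) and 42.2% (chow). Cells with 3 or more UMIs were 93 of the HFD library (3.13%, 2.54 to 3.83%) and 362 of the chow library (8.33%, 7.52 to 9.19%), and they held 51.8% of the gene's UMIs in the HFD and 70.3% in the chow library. Cells with 10 or more were 9 in the HFD library (0.303%), with 13.0% of the UMIs, and 74 in the chow library (1.70%), with 33.9% of the UMIs. A small set of beta cells thus carried most of the Crybb3 UMIs in both libraries. These cut-offs are fixed numbers of UMIs, while the mean per thinned beta cell was 0.33 in the HFD and 0.86 in the chow library. Without thinning, the highest cell held 142 UMIs in the HFD library and 239 in the chow library. The top 1% of beta cells held 31.4% of all Crybb3 counts in the HFD library and 29.2% in the chow library. The top 5% held 60.9% (HFD) and 60.7% (chow), so by rank the counts were about equally concentrated in the 2 libraries.

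The variance over the mean of Crybb3 in thinned beta cells was 4.39 in the HFD library and 8.58 in the chow library. That ranked 17th of 2883 genes in the HFD and 14th of 2700 genes in the chow library, among those with a mean of at least 0.1 UMIs, behind the islet hormones, Malat1, Mt1 and Mt2 among others. Cryba2 in beta cells was near the value of 1 that counting alone gives, at 1.07 in the HFD and 1.10 in the chow library. In alpha cells Cryba2 was moderately uneven, at 1.58 in the HFD and 1.73 in the chow library. No HFD alpha cell was above 8 thinned UMIs and no chow alpha cell above 12. Crybb3 in alpha cells had a variance over mean of 3.74 in the HFD library and 6.38 in the chow library. There 2 HFD alpha cells with 3 or more thinned UMIs held 36.2% of the gene's UMIs, and 21 such chow alpha cells 63.8%. Those chow alpha cells with 3 to 9 Crybb3 UMIs had a median of 2.66% insulin UMIs, against 2.35% in chow alpha cells with none, and their glucagon share was 20.5% in both.

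**Figure D2:**
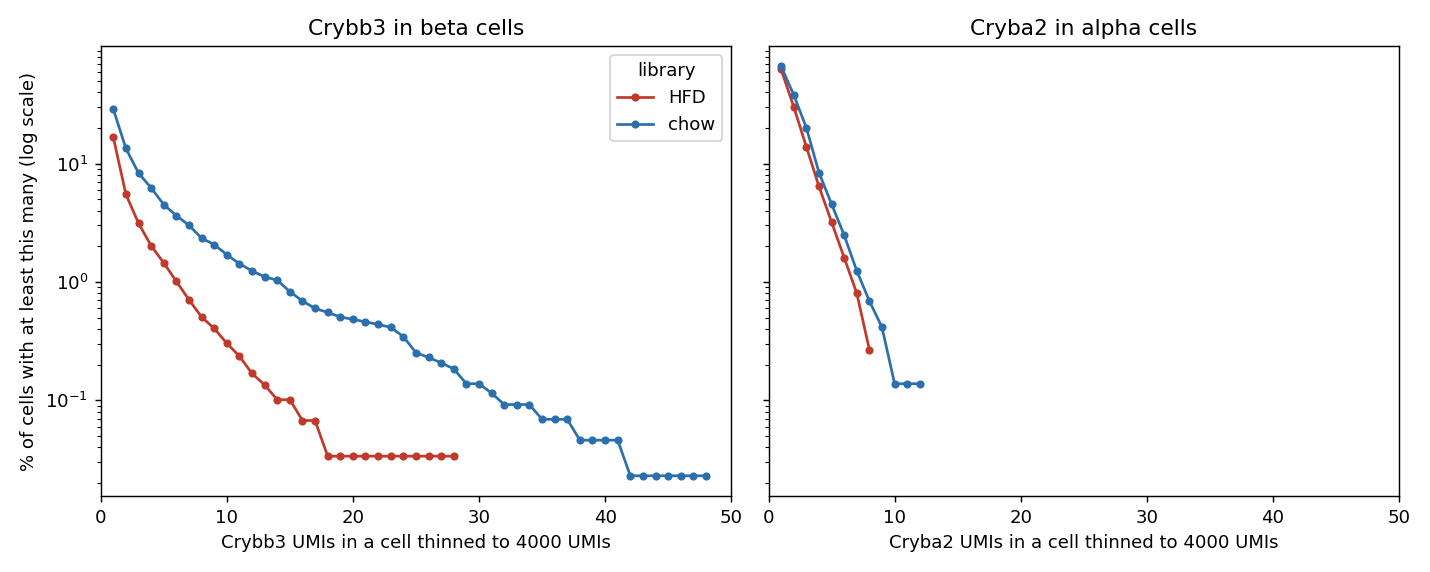
Share of cells (%, log axis) with at least the number of UMIs on the x axis, after thinning to 4000 UMIs per cell, for Crybb3 in beta cells (left) and Cryba2 in alpha cells (right), in the HFD and chow libraries. Crybb3 has a long tail that ends at 28 UMIs in the HFD library and 48 in the chow library, while Cryba2 ends at 8 in the HFD and 12 in the chow library.

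The beta cells rich in Crybb3 had about the insulin share of the others. The HFD cells with 10 or more thinned UMIs had a median of 56.6% insulin UMIs and the chow ones 54.1%, against 52.4% in HFD and 52.6% in chow cells with 0. None of these 9 HFD or 74 chow cells met a second hormone rule. They had more UMIs before thinning, a median of 22827 against 16860.5 in the HFD library and 17824.5 against 14551.5 in the chow library. Cells with 3 to 9 thinned Crybb3 UMIs had a median of 16289.5 in the HFD library, below that of cells with 0, and 17042 in the chow library. In the HFD library the greater depth was thus seen in the 9 richest cells alone. The mitochondrial share of cells with 10 or more was 3.29% against 3.30% in the HFD library and 2.60% against 3.20% in the chow library. Of barcodes removed as likely doublets and meeting the beta rule, 0.758% in the HFD library and 8.91% in the chow library had 3 or more Crybb3 UMIs, against 3.13% of kept HFD and 8.33% of kept chow cells. The part of depth and mitochondrial share in the Crybb3 level was not tested.

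Genes that went with Crybb3 were ranked by Pearson correlation over beta cells of ln(1 + UMIs) at 4000 UMIs, in each library apart (2968 HFD and 4348 chow cells, 4607 genes). Cells of a library share its depth, chemistry and mouse pool, the counts are sparse, and a weak correlation is no finding in itself, so the genes are given for being at the top or bottom in both libraries. Over the 4607 genes r ran from −0.11 to 0.17 in the HFD library and from −0.14 to 0.18 in the chow library. Rgs4, a regulator that shortens G protein signals, ranked first in both, with r of 0.17 in the HFD and 0.18 in the chow library. Beta cells with 3 or more Crybb3 UMIs held Rgs4 at 175 CPM (135 to 223) in the HFD library, against 55.1 CPM (50.5 to 59.9) in cells with none. In the chow library, cells with 3 or more held 171 CPM (150 to 193), against 60.5 CPM (56.3 to 65.0) in cells with none. Rgs4 was therefore 3.17 times higher in Crybb3-rich cells of the HFD library and 2.82 times higher in those of the chow library.

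Of the next genes, Mt2, a metallothionein that binds zinc and copper, had r of 0.10 in the HFD library and 0.16 in the chow library. It stood at 2339 CPM in Crybb3-rich against 1032 CPM in Crybb3-negative HFD beta cells, and at 1754 against 874 CPM in chow beta cells. Mt2 was thus 2.27 times higher in Crybb3-rich cells of the HFD library and 2.01 times higher in those of the chow library. Vmp1, needed to form autophagosomes, was 2.57 times higher in Crybb3-rich HFD cells and 2.22 times higher in those of the chow library. Scarb2, a lysosomal membrane protein, was 2.17 times higher in the HFD and 1.87 times higher in the chow library, and Ctsb, a lysosomal protease, 1.56 (HFD) and 1.62 (chow) times higher. Of the serpins, Serpina10 was 2.04 (HFD) and 1.75 (chow) times higher and Serping1 1.69 (HFD) and 1.77 (chow) times higher. Uqcrq (a subunit of respiratory complex III), Tuba1b (a tubulin), Jun (a subunit of the AP-1 transcription factor), Gsdma (a gasdermin) and Serp1 (a protein of the endoplasmic reticulum) complete the top 12, with r of 0.08 to 0.11 in the HFD library and 0.08 to 0.13 in the chow library.

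At the other end stood Slc30a8, Mlxipl, Chga, Iapp, Meg3 and Cox7a2l. Slc30a8, the zinc transporter of insulin granules, had r of −0.09 in the HFD library and −0.14 in the chow library. It was at 159 CPM in Crybb3-rich against 281 CPM in Crybb3-negative HFD beta cells, and at 130 against 241 CPM in chow beta cells. Mlxipl, which encodes the glucose-responsive factor ChREBP, was at 67.2 against 181 CPM in the HFD library and at 59.4 against 104 CPM in the chow library. Both were thus well below the level of Crybb3-negative cells. Chga, which encodes chromogranin A, was at 0.67 (HFD) and 0.81 (chow) times that level, and Iapp, which encodes amylin, at 0.86 (HFD) and 0.90 (chow) times. Meg3, an imprinted noncoding RNA, was at 0.83 (HFD) and 0.79 (chow) times, and Cox7a2l, an assembly factor of respiratory supercomplexes, at 0.60 (HFD) and 0.67 (chow) times.

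**Figure D3:**
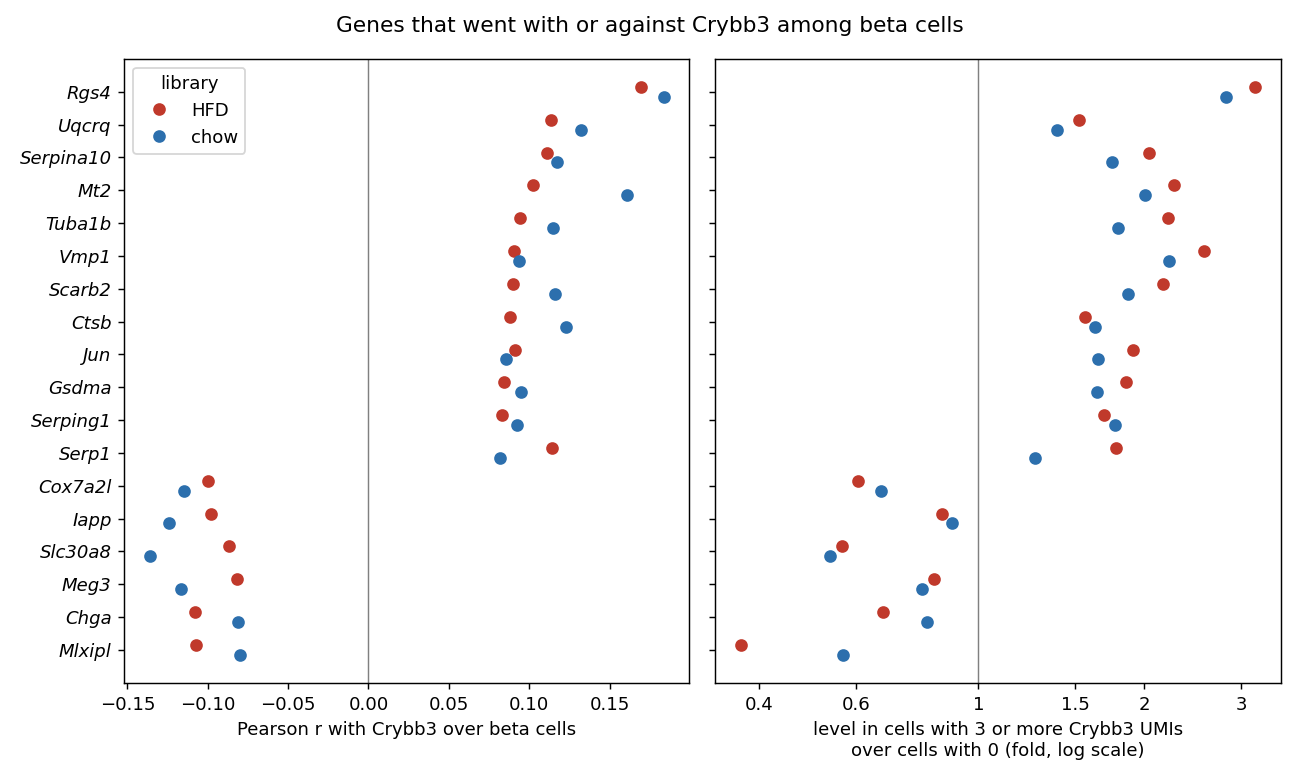
The 12 genes with the highest and 6 with the lowest correlation with Crybb3 in both libraries: left, Pearson r over beta cells; right, level in beta cells with 3 or more thinned Crybb3 UMIs over that in cells with 0, on a log axis. Rgs4 leads both panels, with r of 0.17 in the HFD library and 0.18 in the chow library and folds of 3.17 (HFD) and 2.82 (chow).

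Gene lists were read the same way, by how many measured members had a positive or a negative r with Crybb3 in both libraries, beside 28.8% (positive) and 30.5% (negative) of all 4607 genes. Of 18 measured genes of protein folding in the endoplasmic reticulum, 13 (72.2%) were positive in both and 0 negative, with a median r of 0.02 in the HFD library and 0.05 in the chow library. Pdia6, a disulfide isomerase, had 0.05 (HFD) and 0.08 (chow), and Manf, a secreted stress-response factor, 0.03 (HFD) and 0.10 (chow). Of 7 measured heat shock genes, 4 were positive in both and 0 negative. Of 73 genes of oxidative phosphorylation, 37 (50.7%) were positive and 9 (12.3%) negative. By these counts those lists leaned towards Crybb3, though with small correlations. Median r was 0.019 (HFD) and 0.032 (chow) for heat shock genes. It was 0.003 (HFD) and 0.027 (chow) for oxidative phosphorylation, beside 0.0002 (HFD) and −0.001 (chow) for all genes. The oxidative phosphorylation lean was thus hardly seen in the HFD median.

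By the same counts, lists of beta cell maturity and of the secretory granule leaned the other way. The maturity median r was −0.002 in the HFD library, near that of all genes (0.0002), and −0.032 in the chow library. The granule medians were −0.025 (HFD) and −0.015 (chow). Of 16 maturity genes, 1 was positive in both and 8 negative, among them Slc30a8 and Slc2a2, the glucose transporter, with r of −0.01 in the HFD library and −0.09 in the chow library. Of 14 granule genes, 1 was positive and 7 negative. Of 9 measured genes known to vary between beta cells, 2 were positive and 4 negative. Cd63, a tetraspanin of endosomes and granules, had r of 0.07 in the HFD library and 0.15 in the chow library, and Pdyn, which encodes prodynorphin, 0.02 (HFD) and 0.08 (chow). The lowest were Ppp1r1a, an inhibitor of protein phosphatase 1, with −0.03 (HFD) and −0.12 (chow), and Cd81, another tetraspanin, with −0.02 (HFD) and −0.05 (chow). Spp1, a ductal marker, was 3.82 times higher in Crybb3-rich chow cells (186 against 48.8 CPM) and stood at 13.4 against 15.4 CPM in the HFD library, where the first value rests on 5 UMIs. Among the transcription factors known from lens crystallin genes, 3 were abundant enough: Pax6 had r of −0.02 (HFD) and −0.05 (chow), and Prox1 and Mafg had opposite signs in the 2 libraries.

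Between Crybb3 and Cryba2 r over beta cells was 0.01 in the HFD library and −0.01 in the chow library. Over alpha cells it was 0.02 in the HFD library (374 cells) and 0.13 in the chow library (725 cells). In HFD alpha cells with 0, 1 to 2 and 3 or more Cryba2 UMIs, Crybb3 was at 39.3 CPM (24.6 to 59.5), 13.7 CPM (6.59 to 25.3) and 72.1 CPM (40.4 to 119). In the same classes of chow alpha cells it was at 49.2 CPM (36.3 to 65.2), 59.7 CPM (47.3 to 74.3) and 140.4 CPM (112 to 174). Chow alpha cells with the most Cryba2 thus held more Crybb3 than the rest, and the HFD levels followed no steady order. These intervals leave out the spread between cells. In chow alpha cells, 21 cells with 3 or more thinned Crybb3 UMIs held 63.8% of the gene's UMIs. A few cells could therefore make the chow difference, which was not tested. Genes that went with Cryba2 in beta cells had r below 0.08 in both libraries: Insm1, an endocrine zinc finger factor, had 0.05 (HFD) and 0.06 (chow), and the ribosomal protein gene Rpl41 0.06 (HFD) and 0.07 (chow). The lowest was Ins2, at −0.08 (HFD) and −0.06 (chow). In delta cells (370 HFD, 438 chow) the named genes had r between −0.14 and 0.13, among them Klf3 with 0.13 (HFD) and 0.12 (chow). Klf3 was named for its lower r of the 2 libraries. It ranked 72nd in the HFD and 67th in the chow library of 6045 genes, whose highest r was 0.23 (HFD) and 0.19 (chow).

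In alpha cells Cryba2 went with Gnas, the stimulatory G protein subunit, with r of 0.20 in the HFD library and 0.17 in the chow library. Ttr, which encodes transthyretin, had 0.14 (HFD) and 0.19 (chow), and Lpl, lipoprotein lipase, 0.14 (HFD) and 0.12 (chow). Gatsl2, H2afj and Fkbp9 followed, with r of 0.10 to 0.13 (HFD) and 0.09 to 0.12 (chow). Over all 5527 genes r ran from −0.18 to 0.23 (HFD) and from −0.20 to 0.22 (chow), and 201 (HFD) and 74 (chow) genes were over 0.1. In the HFD library Gnas ranked 3rd, Ttr 39th, Fkbp9 124th and H2afj 169th, so many other genes had r as high there. The lowest named genes were Mt1, a metallothionein, with −0.15 (HFD) and −0.16 (chow), Ppy with −0.13 (HFD) and −0.12 (chow), and Rpl10 with −0.11 (HFD) and −0.13 (chow). The Ppy relation was graded: in HFD alpha cells with 0, 1 to 2 and 3 or more Cryba2 UMIs, Ppy was at 23236, 14508 and 6269 CPM, and in chow alpha cells at 21406, 12770 and 6413 CPM. Grouped by Ppy instead, alpha cells with at least 1% Ppy UMIs held Cryba2 at 232 CPM (205 to 262) in the HFD library (91 cells) and 256 CPM (231 to 284) in the chow library (151 cells). Alpha cells with less Ppy held 332 CPM (312 to 353) in the HFD and 384 CPM (367 to 402) in the chow library. Alpha cells rich in Ppy were therefore poorer in Cryba2 in both libraries, by more than the counting error, and their median UMIs were 11712 against 10819 in the HFD library and 9373 against 8132 in the chow library. The part of depth in this was not tested.

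Over the 4 hormone types in 2 libraries, 8 points in all, the 5 genes whose log2(CPM + 1) followed Crybb3 most closely among 2506 genes were Ergic1, with r of 0.96, then Serp1, Spc25, Glul and Itgav. Ergic1, of the compartment between endoplasmic reticulum and Golgi, was at 48.23 CPM in HFD and 50.995 CPM in chow beta cells, and at 24.95 CPM in HFD and 28.98 CPM in chow delta cells. For Cryba2 they were Upk3a, with r of 0.99, then Cald1, Rpl29, Ccnt2 and Rplp1. Upk3a, a uroplakin, was at 55.3 CPM in HFD and 43.9 CPM in chow alpha cells and at 0.28 CPM in HFD and 0.54 CPM in chow beta cells. Fev, next to Cryba2 on the chromosome, was at 32.5 CPM (HFD) and 45.5 CPM (chow) in alpha cells, 33.4 CPM (HFD) and 38.5 CPM (chow) in delta cells, and 0.66 CPM (HFD) and 0.56 CPM (chow) in beta cells. Crybb2, next to Crybb3, had 1 UMI over the HFD and 2 over the chow beta cells.

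The other crystallins were scarce. The table held 22 of 24 listed crystallin and crystallin-related symbols. In beta cells Cryaa, Cryba1, Crygb, Crygc, Crygd, Cryge and Crygf had 0 UMIs in both libraries, and Cryga, Crygn, Crygs and Crym had at most 5. Cryba4 had 13 UMIs in the HFD and 18 in the chow library. Crybb1, which lies on the same chromosome as Crybb3, was at 3.07 CPM (2.60 to 3.59) in the HFD library and 3.60 CPM (3.16 to 4.08) in the chow library. The relatives outside the lens family proper, Cryl1, Cryz, Cryzl1, Crybg3 and Aim1, were between 2.76 and 18.1 CPM. Cryab, a small heat shock protein, was found mainly in 2 other classes. The unnamed cells held 592 CPM in the HFD and 1026 CPM in the chow library, and the fibroblast or pericyte-like cells 366 CPM in the HFD and 1570 CPM in the chow library. In beta cells it had 239 UMIs in the HFD library and 99 in the chow library, from 0.977% of HFD and 1.24% of chow beta cells, and 169 of the 239 were in 1 cell.

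Against chow, the HFD library had less Crybb3 in beta and alpha cells, while Cryba2 was closer to its chow level. The Crybb3 value was also lower in delta cells, where the gene was near the background. Differences are log2 ratios of HFD over chow CPM, with 0.5 added to each summed count, minus the median of all genes of the type with at least 50 counts. That median was 0.19 in beta, −0.01 in alpha, 0.08 in delta and 0.08 in PP cells. Crybb3 stood at −1.67 in beta cells, the 50th lowest of 12252 genes, its CPM in the HFD library being 0.36 times that in the chow library. It stood at −1.57 in alpha cells (29th of 8919), from 106 HFD and 481 chow UMIs. In delta cells it stood at −1.23 (20th of 8616), from 37 HFD and 83 chow UMIs. With cells thinned to 4000 UMIs the delta value was −1.88, from far fewer UMIs. Of the thinned HFD delta cells, 4 had 1 Crybb3 UMI and 1 had 5. Of the chow ones, 19 had 1, 4 had 2 and 2 had 3 to 9. In PP cells it stood at −0.19, from 25 HFD and 33 chow UMIs. Crybb3 was the 1 member of 2 at or below −1 in beta, alpha and delta cells, where 2.27%, 1.19% and 0.476% of genes were, and neither member was in PP cells, where 0.789% of genes were. Neither was at or above 1, where 0.922% of genes in beta, 0.572% in alpha, 0.58% in delta and 1.37% in PP cells were. The members were chosen with these ratios known, so nothing is read from these shares.

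Cryba2 differed less between the libraries. Its relative log2 ratio stood at −0.14 in beta cells, −0.21 in alpha cells, −0.32 in delta cells and −0.17 in PP cells. Without the scaling to the median of all genes the beta value was 0.05, of the other sign. The intervals of the 2 libraries did not overlap in alpha cells and overlapped in beta, delta and PP cells. In endothelial-like cells Crybb3 stood at 0.32, with overlapping intervals and the other sign (−0.0947) when cells were thinned, where 0.807% of genes were at or below −1.

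The lower Crybb3 of the HFD library was both fewer cells with it and fewer UMIs in those that had it. Among thinned beta cells with any Crybb3 the mean was 1.98 UMIs in the HFD library and 2.99 in the chow library. With at most 3 UMIs counted per thinned cell, so that the richest cells weigh less, the relative log2 ratio in beta cells was −1.17, against −1.56 for the thinned cells without that limit. In alpha cells it was −0.99 with the limit and −1.20 without it.

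Within groups of like beta cells the same direction was found. Groups were made by depth, insulin share, Ppy share, Pdyn, Hspa1a, metallothionein, Cd63 or mitochondrial share. Each of these divides the same cells anew, so the 32 groups overlap and are not separate observations. The gap over all beta cells also makes a shared sign likely. In 32 of 32 groups HFD cells had less Crybb3 than chow cells, with relative log2 ratios of −2.31 to −0.94, at or below −1 in 30. Cryba2 was below 0 in 28 of the 32, between −0.46 and 0.12. With beta cells ranked by depth into 5 groups, from the shallowest to the deepest, HFD beta cells had Crybb3 at 78.9, 101, 68.2, 95.2 and 86.9 CPM and chow beta cells at 148, 177, 171, 246 and 359 CPM. The gap between libraries was thus widest in the deepest cells.

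Levels of Crybb3 also differed between such groups within a library. Beta cells with 6 or more thinned Cd63 UMIs held 151 CPM in the HFD library (54 cells) and 412 CPM in the chow library (754 cells), while those with 0 held 62.6 CPM (HFD) and 150 CPM (chow). Cells with 10 or more thinned Mt1 and Mt2 UMIs held 119 CPM (HFD) and 360 CPM (chow), and those with 0 held 54.8 CPM (HFD) and 113 CPM (chow). Groups by Hspa1a, the inducible heat shock protein 70, and by Pdyn used UMIs before thinning, so deeper cells enter them more readily. Chow Crybb3 was itself highest in the deepest cells, and the part of depth was not tested. Cells with Hspa1a numbered 95 in the HFD library and 1228 in the chow library. They held 113 CPM (HFD) and 331 CPM (chow), against 85.8 CPM (HFD) and 195 CPM (chow) in cells without it. Cells with Pdyn held 95.8 CPM (HFD) and 363 CPM (chow), against 85.3 CPM (HFD) and 202 CPM (chow) without it. Cells rich in Cd63 or metallothionein RNA were thus richer in Crybb3 in both libraries.

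**Figure D4:**
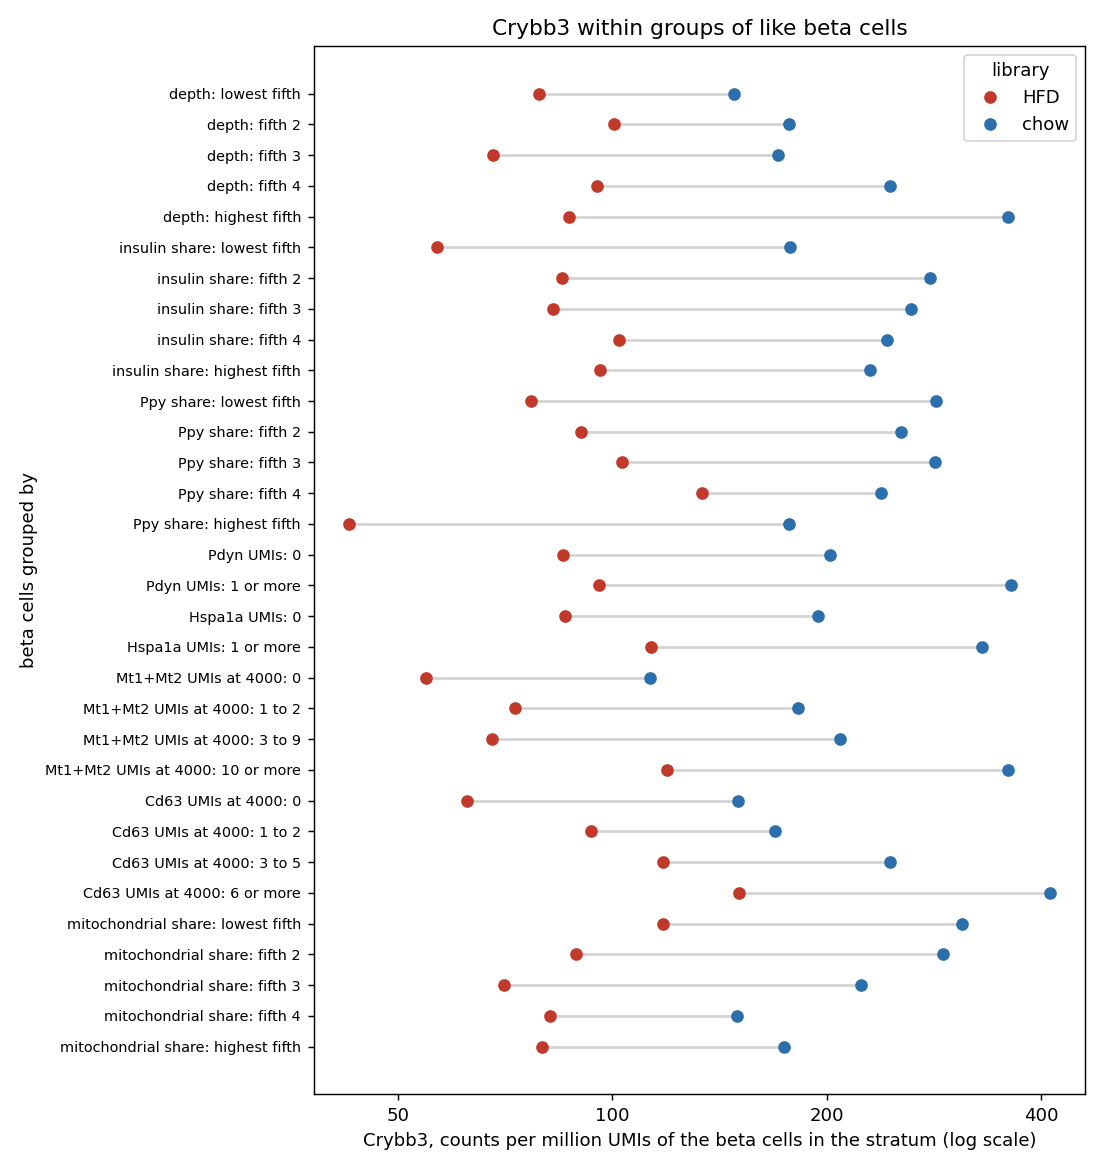
Crybb3 in counts per 1000000 UMIs (log axis) in 32 groups of like beta cells, in the HFD and chow libraries; each line joins the 2 libraries in a group. The HFD point lies left of the chow point in 32 of 32 groups, which divide the same cells repeatedly and are not separate observations.

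Other genes differed between the libraries in beta cells alongside Crybb3. Of 20 genes of protein folding in the endoplasmic reticulum 5 were at or below −1, of 12 heat shock genes 4, of 84 genes of oxidative phosphorylation 14 and of 16 genes known to vary between beta cells 5, beside 2.27% of all genes. The medians were −0.71, −0.60, −0.64 and −0.27, where that of all genes is 0 by construction. Fkbp11, a prolyl isomerase of the endoplasmic reticulum, was at 9.14 CPM in HFD beta cells and 41.4 CPM in chow beta cells. Hspa1a was at 5.29 CPM (HFD) and 62.4 CPM (chow), Cox6a2, a subunit of cytochrome c oxidase, at 13.9 CPM (HFD) and 51.9 CPM (chow), and Cd63 at 312 CPM (HFD) and 891 CPM (chow). None of 17 maturity genes or 14 granule genes was past −1 or 1. Among the lens-related factors none of 7 was, and Pax6 was at 252 CPM in HFD and 151 CPM in chow beta cells, a relative log2 ratio of 0.54. Rgs4, the leading companion of Crybb3, was at 67.9 CPM in HFD and 80.9 CPM in chow beta cells, a ratio of −0.45. Cryab, at 1.51, was the 1 of 7 measured other crystallins past 1, beside 0.922% of all genes, and 1 cell held most of its HFD counts.

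RNA of other cell types in beta cells differed between the libraries as well. The 8 acinar markers summed to 6.37 CPM in HFD and 21.4 CPM in chow beta cells, with Amy2a5 at 0 in the HFD library, and the 6 ductal markers to 159 CPM (HFD) and 309 CPM (chow). The 6 alpha markers summed to 1159 CPM (HFD) and 1660 CPM (chow), the 4 delta markers to 468 CPM (HFD) and 382 CPM (chow), and the 4 PP markers to 4804 CPM (HFD) and 3537 CPM (chow). The 8 endothelial markers summed to 33.4 CPM (HFD) and 26.5 CPM (chow), the 9 macrophage markers to 67.0 CPM (HFD) and 42.4 CPM (chow), and the 8 fibroblast or pericyte markers to 21.8 CPM (HFD) and 8.71 CPM (chow). In alpha cells the 8 beta markers, Mafa at 0 among them, summed to 22178 CPM in the HFD library and 30876 CPM in the chow library. The part of these RNAs, of depth and of the heat shock and Cd63 differences in the Crybb3 ratio was not tested.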

How the data were processed

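The deposited matrices are raw UMI counts for each gene in each barcode, as their values show, made by the authors with Cell Ranger (version 2.1.0 in the submitters' processing notes). The genome build, annotation and cell-calling rule were not given in the sources used here. The HFD library held 4539 barcodes with 68544729 UMIs and the chow library 6509 barcodes with 89292222 UMIs. Barcodes under 500 genes or over 10% mitochondrial UMIs were removed (145 HFD, 122 chow). Doublets were scored with Scrublet (scanpy 1.11.5) in each library. Left to itself it called 0.0228% (HFD) and 0.0470% (chow), so the barcodes scoring above the top 5% limit were removed instead (194 HFD, 278 chow), which left 4200 HFD and 6109 chow cells. The names of left-over cells needed at least 3 detected markers.

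Counts were summed per class and library. Log2 ratios used genes with at least 50 summed counts. Correlations used genes with a thinned mean of at least 0.05 UMIs in each library, and likeness of pattern genes of at least 50 CPM in 1 type. The thinning left out 24 chow beta cells under 4000 UMIs. The members, gene lists and tests were chosen with earlier results of these data known, and no chance test was made. Named genes are both crystallins, the rest of the crystallin list, the 12 highest and 6 lowest companions of Crybb3, the 6 highest and 3 lowest of Cryba2 per type, 5 genes like each in pattern, and, of each list, examples among the members with the highest and lowest values. Genes also named for their neighbourhood or as group variables (Spp1, Fev, Hspa1a, Rgs4 by diet) were chosen with their values in view. Alternatives were no doublet removal, all barcodes, cells of 1 hormone, another denominator, mean per cell, thinning, no minimum count, and TMM (edgeR 4.0.16) or median-of-ratios scaling. The calculations were tested on simulated counts.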

Additional observations from a re-analysis of the deposited data

Results flagged for a closer look

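Crybb3 differed in direction between cell classes: its relative log2 ratio of HFD over chow was 0.318 in endothelial-like cells (56 HFD and 59 chow UMIs) and −1.67 in beta cells. It was singled out because the single HFD library lay above the single chow library in 1 class and below it in the other. The difference was not tested, since each diet has 1 library. The Poisson intervals of the endothelial-like levels overlap, and the sign of the endothelial-like value turns with thinning. The share of UMIs that are insulin in endothelial-like cells was lower in cells with Crybb3 than in cells without it in both libraries. The cells with Crybb3 were also deeper, with median UMIs of 9112.5 against 5868 (HFD) and 8159 against 6632.5 (chow). The part of depth in that share was not tested, so nothing is read from it about the source of the Crybb3 UMIs.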

How the results depend on the processing

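No paired analysis was possible because each diet has 1 library and no replicate numbers are shared. The ratio of HFD over chow for Crybb3 in beta cells ran from −1.69 to −1.17 over 12 alternatives. It was −1.50 as a mean over cells, −1.56 with cells thinned to 4000 UMIs, −1.48 with no scaling beyond CPM, −1.41 in cells with no Pdyn UMI and −1.17 with at most 3 UMIs counted per thinned cell, an alternative chosen after seeing the data. With thinning it was −1.20 in alpha and −1.88 in delta cells. With the limit of 3 UMIs it was −0.99 in alpha cells, which no longer pass −1, and −1.98 in delta cells. Both of these delta values rest on very few HFD UMIs. Cryba2 in beta cells was −0.0307 with thinning, −0.0240 with the limit and 0.0483 with no scaling beyond CPM, which turns its sign. Crybb3 in endothelial-like cells was −0.0947 with thinning, of the other sign, and 0.24 to 0.34 under the other alternatives, which were added after seeing the data.

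Between types, leaving hormone RNA out of the denominator gave log2 ratios for Crybb3 of 2.56 (HFD) and 2.52 (chow) for beta over alpha and 3.95 (HFD) and 4.23 (chow) for beta over delta cells. For Cryba2 it gave −2.83 (HFD) and −3.04 (chow) for beta over alpha, and 0.0396 (HFD) and −0.30 (chow) for beta over delta cells, so that the HFD value changed sign. Thinning gave 1.37 (beta over alpha) and 3.68 (beta over delta) for Crybb3 and −3.44 (beta over alpha) for Cryba2 in HFD cells, and the mean over cells gave 1.44 for Crybb3 in beta over alpha chow cells. With no doublet removal Cryba2 in beta over alpha cells was −3.50 (HFD) and −3.79 (chow), and with all barcodes −3.50 (HFD) and −3.78 (chow). The cause of these shifts was not tested. The other 78 diet values and 32 type values moved less than their counting interval. Of 214 correlations, 35 moved, 29 of them without thinning, and none changed sign. The variance over mean of Cryba2 in HFD beta cells was 1.27 with no doublet removal. Counts in PP, endothelial-like and macrophage-like cells limit what can be seen there.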
